A study of Homo sapiens with 26 samples.

Results

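Chromosome 11 was followed through single-cell DamID maps of 26 KBM7 cells, as the bins of 100 kb on that chromosome (hg19) that had a value in the deposited table and were above 0 in at least 1 cell. These were 1303 of its 1351 bins, out of 26331 such bins in the whole table. None of the 26331 lies on chromosome 8, so the genome and the other autosomes are meant without it. The 22 chromosomes with used bins include X and the rearranged ones listed as 9:22 and 22:9. KBM7 is a human myeloid leukaemia line with a nearly haploid karyotype. All 26 cells came from clone 5-8, were labelled 1N, and carried Dam that is not fused to a second protein. Every cell received 0.5 nM Shield1, a ligand that stabilises the Dam protein, for 15 h before harvest, and was sorted singly from the smallest 2% by scatter with both Fucci reporters of the cell cycle present. There is thus 1 group and no untreated or wild-type counterpart. The cells of 1 clone are not separate cultures, so regions are compared within the same cells, an SD is a spread over cells, and no p-value is given. The series title names lamin B1, but each sample is labelled as Dam without a fusion partner, and is described so here.

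Dam is a bacterial methyltransferase that marks the adenine of GATC. DpnI then cuts methylated GATC sites and the fragments are amplified and sequenced, so that a fragment is recovered only where Dam reached the DNA in the living cell. Untethered Dam marks open chromatin more than compact chromatin. Human chromosome 11 is known for an uneven gene landscape: the gene-dense band 11q13 holds many broadly expressed genes, 11p14 and the stretch from 11q14 to 11q22 are gene-poor, and large families of olfactory receptor genes, which are silent outside the olfactory epithelium, lie on both arms.

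Promoters at both ends of the profile show what the enzyme reads. Each run below covers 250 bases before and 50 bases after a start site, from RefSeq (GRCh38.p14), with GATC in capitals and all other bases in lower case. MALAT1 (chr11:65497488-65497787, plus strand) and LDHA (chr11:18394313-18394612, plus strand) belong to loci with a high level in these cells, and LUZP2 (chr11:24496803-24497102, plus strand) and PGR (chr11:101129028-101129327, minus strand) to loci with a low one. These positions are of another build than the bins and were not converted.
MALAT1: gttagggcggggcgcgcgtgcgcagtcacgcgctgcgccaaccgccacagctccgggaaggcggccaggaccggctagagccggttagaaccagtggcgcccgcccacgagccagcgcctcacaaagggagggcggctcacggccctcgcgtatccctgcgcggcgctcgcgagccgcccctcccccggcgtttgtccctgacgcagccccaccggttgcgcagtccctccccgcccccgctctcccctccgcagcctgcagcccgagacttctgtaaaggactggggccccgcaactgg
LDHA: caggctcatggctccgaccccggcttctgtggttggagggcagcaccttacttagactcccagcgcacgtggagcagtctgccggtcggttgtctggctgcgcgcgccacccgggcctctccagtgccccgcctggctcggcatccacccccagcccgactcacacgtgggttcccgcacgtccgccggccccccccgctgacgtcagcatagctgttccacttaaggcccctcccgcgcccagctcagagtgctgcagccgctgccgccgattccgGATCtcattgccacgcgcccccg
LUZP2: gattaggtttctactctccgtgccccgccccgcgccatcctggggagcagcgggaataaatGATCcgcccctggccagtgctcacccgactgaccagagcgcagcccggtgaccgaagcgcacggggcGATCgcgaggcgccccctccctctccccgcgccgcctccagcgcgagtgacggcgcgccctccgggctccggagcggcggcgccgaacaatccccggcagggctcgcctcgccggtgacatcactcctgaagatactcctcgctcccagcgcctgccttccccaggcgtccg
PGR: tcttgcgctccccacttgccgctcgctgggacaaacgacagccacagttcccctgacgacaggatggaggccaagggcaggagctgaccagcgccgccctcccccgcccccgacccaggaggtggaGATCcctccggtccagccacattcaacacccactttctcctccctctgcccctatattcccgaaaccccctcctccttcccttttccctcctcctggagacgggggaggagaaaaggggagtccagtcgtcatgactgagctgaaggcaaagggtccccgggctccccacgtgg
The MALAT1 run holds 0 GATC, the LDHA run 1, the LUZP2 run 2 and the PGR run 1. GATC, which reads the same on both strands, occurs in 40.3% of the 1893 promoter runs of chromosome 11 in that table and in 41.7% of all 35116. A bin of 100 kb pools all sites within it, so these runs describe the target and not the level of a bin.

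Values are given as a relative level, which is the deposited ratio of observed over expected signal divided by the mean of all used bins in that cell. A relative level of 1 is the average of that cell. The whole counts behind the ratios summed to between 20182 and 178941 per cell over the genome, and to between 700 (cell 22) and 8971 (cell 1) on chromosome 11, or 0.537 to 6.88 counts per bin. A single bin in a single cell is therefore mostly counting noise, and bins were averaged over regions or cells. Counts summed over cells are given with exact 95% Poisson intervals, which cover counting error only, since PCR copies of 1 molecule may have been counted more than once. Cell 22 stood apart from the other 25, and the main comparisons are also given without it.

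As a whole, chromosome 11 lay close to the average of the genome. Its mean ratio over that of the other autosomes was lowest in cell 22 at 0.605, had a median of 0.959, and was highest in cell 10 at 1.24. The mean was 0.952 ± 0.121 (SD, n = 26 cells), with 7 cells above 1. In summed counts, 75682 on chromosome 11, the level was 1.00 times the genome average (0.993 to 1.01). The near-average level hid a wide range along the chromosome. Over windows of 5 Mb, chromosome 11 ran between 0.444 and 1.68 with an SD of 0.354, which placed it 10th of 22 chromosomes. The SD was 0.293 on chromosome 10 and 0.414 on chromosome 12, the chromosomes nearest in length.

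The short arm was marked slightly less than the long arm. The short arm had a relative level of 0.917 ± 0.137 over 506 bins and the long arm 0.994 ± 0.114 over 797 bins. The log2 ratio of the short over the long arm was -0.12 ± 0.12 and was below 0 in 24 of 26 cells, the exceptions being cells 5 and 17. In summed counts it was -0.06. The short arm includes 28 bins whose expectation was under 0.5 times the genome median, 19 of them in 11p11.12 beside the centromere, against 17 such bins on the long arm. Both arms alternated between high and low stretches several megabases long.

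**Figure D1:**
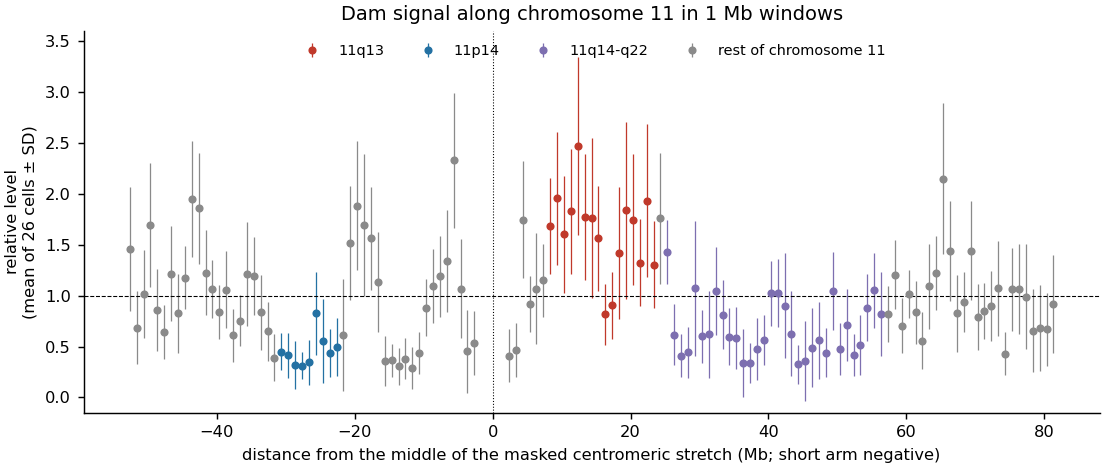
Relative level (mean of 26 cells, bars SD) of windows of 1 Mb along chromosome 11, against the distance in Mb from the middle of the masked centromeric stretch. Windows wholly inside 11q13, 11p14 and 11q14-q22 are coloured, and peaks on the short arm stand on both sides of low stretches.

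11q13 was then set against the gene-poor stretches. 11q13 (about 61 to 77 Mb, 159 used bins) was marked above the cell average, and both gene-poor stretches below it. As taken here, 11q13 includes part of 11q12.2 and all of 11q12.3, since 11q13.1 starts at 63400001 by the band bounds used. The relative level of 11q13 was 0.527 in the lowest cell, 1.62 in the median cell and 2.38 in the highest. For 11p14 (21700001 to 31000000, 93 bins) the lowest cell was at 0.127, the median at 0.455 and the highest at 0.743. In the stretch 11q14-q22 (77100001 to 110400000, 329 bins) the cells ran from 0.526 over a median of 0.708 to 0.922. In 25 of the 26 cells 11q13 lay above the highest value of either gene-poor stretch in any cell, and the exception was cell 22.

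**Figure D2:**
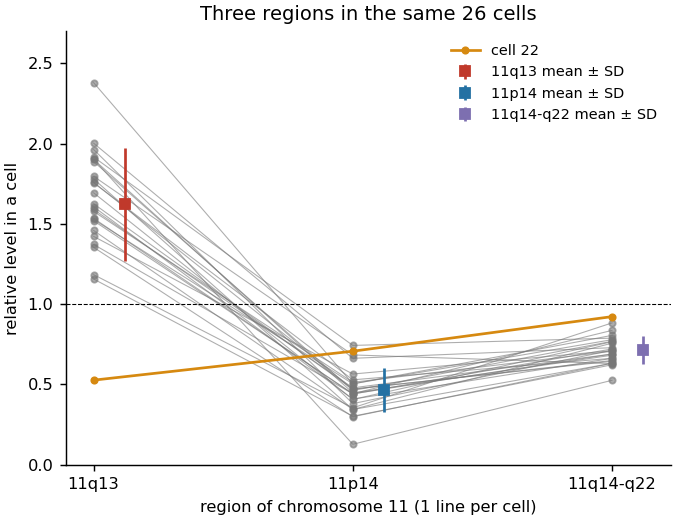
Relative level of 11q13, 11p14 and 11q14-q22 in each of the 26 cells (1 line per cell), with the mean and SD as squares beside the points. 25 lines fall from 11q13 to both other regions, and the line of cell 22 rises.

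The mean level of 11q13 was 1.62 ± 0.351, against 0.463 ± 0.137 in 11p14 (SD, n = 26). The mean log2 ratio was 1.84 ± 0.67, a 3.58-fold difference, and it was above 0 in 25 cells. Without cell 22 it was 1.93 ± 0.50. Against 11q14-q22, at 0.716 ± 0.0881, the log2 ratio of 11q13 was 1.15 ± 0.49 or 2.22-fold, again above 0 in 25 cells, and 1.23 ± 0.30 without cell 22. Summed over cells, 11q13 held 14650 counts at 1.66 times the genome average (1.64 to 1.69). 11p14 held 2534 counts at 0.473 times (0.455 to 0.492), and 11q14-q22 held 13789 counts at 0.736 times (0.724 to 0.748).

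The gene-poor stretches were not alike. 11p14 was lower than 11q14-q22 in 25 of 26 cells, with a log2 ratio of -0.69 ± 0.44. All 9 windows of 1 Mb within 11p14 had a mean below 1, and 6 of them were under 0.5. The highest, from 27000001 to 28000000, reached 0.828 and holds BDNF, a neuronal growth factor gene. Of the 32 windows within 11q14-q22, 25 were below 1, 11 of them under 0.5, and 7 were above 1. Over all 131 windows of chromosome 11, 74 were below 1, 28 of them under 0.5, and the share over the genome is not given. Low levels thus ran through 11p14 but covered 11q14-q22 only in part.

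Gene content was set beside these levels through the order of genes in RefSeq (GRCh38.p14), counting protein-coding genes between boundary genes and dividing by the used hg19 bins, which mixes builds and is approximate. From VWCE to GDPD4, spanning 11q13, there were 339 genes, or 21.3 per Mb. From ANO5 to DCDC1, spanning 11p14, there were 23, or 2.47 per Mb, and from AQP11 to FDX1, spanning 11q14-q22, 140 or 4.26 per Mb. The whole chromosome has 1301, or 9.98 per Mb, of which 171 are olfactory receptor genes. 11p13, from DNAJC24 to PRR5L, has 35 genes or 6.48 per Mb, below the figure of the whole chromosome, and was at 1.44. 11p12, from TRAF6 to API5, has 6 genes or 0.845 per Mb and was at 0.430.

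By band, the profile had its maximum in 11q13.1. Of 35 bands with used bins, 10 were above 1 in at least 21 of 26 cells (80%), 14 were below 1 in at least 21, and 11 were neither. Of blocks of 35 used bins (the median size of a band) over the whole genome, 26.2% were above and 42.1% below by the same count. The 10 high bands were 11p15.4, 11p15.3, 11p13, 11p11.2, the run 11q12.2, 11q12.3, 11q13.1 and 11q13.2, and 11q13.4 and 11q13.5. The 3 highest were 11q13.1 at 2.14 ± 0.617, 11q13.2 at 1.81 ± 0.487 and 11q12.3 at 1.68 ± 0.421. The 3 lowest were 11p14.3 at 0.377 ± 0.136, 11p14.2 at 0.386 ± 0.209 and 11q14.3 at 0.415 ± 0.147. In 11p11.12, at 0.493 ± 0.262, 19 of 20 bins had a low expectation, and the remaining bin was at 0.854. 11q23.3 was at 1.15 ± 0.283 (19 cells above 1). Its window of 1 Mb at 118000001 to 119000000 was at 2.15 ± 0.746, above 1 in 25 cells. The end bands differed: 11p15.5 was near the average at 0.996 ± 0.320 (12 cells above 1), whereas 11q25 was at 0.728 ± 0.289 (4 cells above 1).

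**Figure D3:**
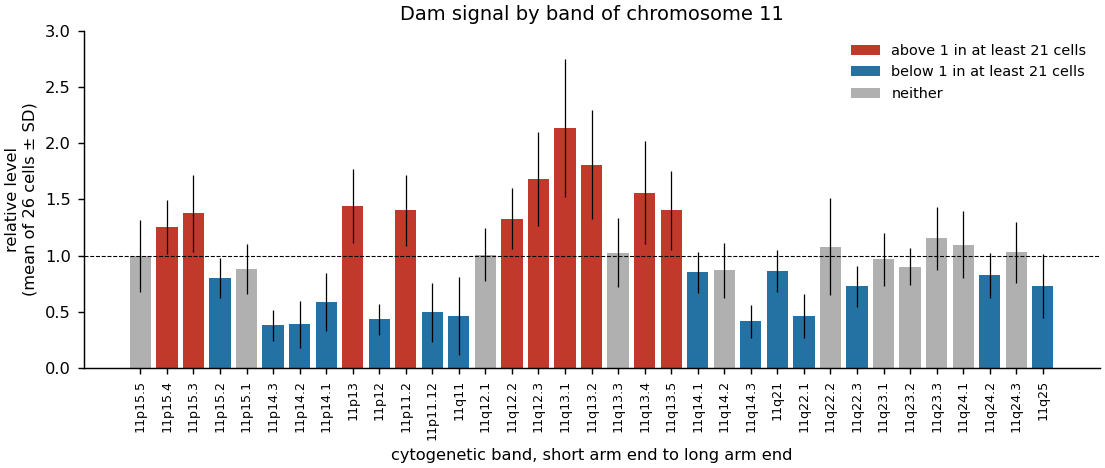
Relative level (mean of 26 cells, bars SD) of the 35 bands of chromosome 11 with used bins, in order along the chromosome and coloured by the number of cells above or below 1. The range is from 0.377 in 11p14.3 to 2.14 in 11q13.1.

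Large differences between neighbouring bands were found on the short arm, in comparisons chosen after the values were seen. 11p13 was at 1.44 ± 0.327 and its neighbour 11p12 at 0.430 ± 0.134, a 3.45-fold difference present in all 26 cells, cell 22 included. 11p11.2, on the other side of 11p12, was at 1.40 ± 0.320, or 3.33 times 11p12, also higher in all 26 cells. Towards the end of the arm, 11p13 exceeded 11p14.1 (0.585 ± 0.259) in 25 cells, by 2.62-fold. In windows of 1 Mb, the level was 1.13 ± 0.490 at 36000001 to 37000000 and 0.359 ± 0.246 in the next. The window at 41000001 to 42000000 was the lowest of 131 on the chromosome, at 0.292 ± 0.207 and below 1 in all 26 cells. The window at 47000001 to 48000000, 6 Mb further, was at 2.33 ± 0.663 and above 1 in all 26.

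11q13 was itself uneven. Its window at 65000001 to 66000000 was the highest on the chromosome, at 2.47 ± 0.875 and above 1 in all 26 cells. The windows at 69000001 to 70000000 and at 70000001 to 71000000 were below 1, at 0.817 ± 0.303 and 0.904 ± 0.326, each above 1 in 7 cells. These 2 were the exceptions among its 16 windows. 11q13.1 exceeded 11q13.3 (1.02 ± 0.308) by 2.13-fold and in 25 cells. The upper border lay past the band: the windows at 77000001 to 78000000 and 78000001 to 79000000 were at 1.76 ± 0.644 and 1.43 ± 0.315, and the next at 0.618 ± 0.304.

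Within 11q14-q22, low and average stretches alternated. 11q14.3 was at 0.415 ± 0.147 and 11q22.1 at 0.458 ± 0.196. 11q21, between them, was at 0.861 ± 0.188, above 11q14.3 in all 26 cells and above 11q22.1 in 24. 11q22.2, with 8 bins, was at 1.08 ± 0.435, above 1 in 14 cells. Cell 22 moved against the others here, with 1.28 in 11q22.1, its highest value in any cell, and with 0.213 in 11q22.3, the lowest in any cell.

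Named loci were measured in 6 groups by role, placed on hg19 to the nearest 0.1 Mb from general knowledge of the genome. Windows of single genes were widened by 2 bins on each side, so a value describes a neighbourhood and not a gene, while very long genes and gene clusters were taken as they are. As positions were rounded, a value without the widening may belong to the bin beside the gene. Windows of the CD3 genes and KMT2A, and of ETS1 and FLI1, overlap. Of all windows of 5 neighbouring used bins in the genome, 16.7% were above 1 in at least 21 cells and 41.5% below, and 41.3% had a mean above 1. The loci were picked with earlier results of these data known. Counts of loci set beside these shares in the paragraphs below are therefore a description only, not independent support.

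Broadly expressed genes lay mostly in high neighbourhoods. Of 10 such loci, 9 had a mean above 1, against 41.3% of windows in the genome, and 6 were above 1 in at least 21 cells. With the widening, the highest was that of the abundant nuclear RNAs NEAT1 and MALAT1, whose promoter is printed above, with cells between 1.31 and 6.59, a median of 2.51 and a mean of 2.62 ± 1.06, above 1 in all 26. RPS3, a ribosomal protein gene, was at 2.56 ± 1.18. LDHA, which encodes lactate dehydrogenase A, was at 1.55 ± 0.587. HSPA8, a constitutive chaperone gene, was lowest at 0.958 ± 0.445, above 1 in 12 cells. Without the widening HSPA8 was at 1.05, and CAT, the catalase gene, fell below 1 to 0.888 and was lowest.

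Loci of blood cell genes were high with 1 exception. Of 9, 8 had a mean above 1, against 41.3% of windows, and 6 were above 1 in at least 21 cells. The 6 include genes of T cells, namely the CD3 genes and the locus of CD5 and CD6, and not only myeloid ones. SPI1, the myeloid transcription factor PU.1, was highest of all 48 loci with the widening. The bin taken for SPI1 without the widening was at 1.95, below those taken for LMO2 and others. The widened SPI1 window had cells from 1.01 to 6.63, a median of 2.77 and a mean of 2.75 ± 1.06, above 1 in all 26. LMO2, a haematopoietic transcription cofactor, was at 2.45 ± 0.911, and at 4.71 without the widening. CBL, a ubiquitin ligase of receptor signalling, was at 2.28 ± 0.835. ETS1, a lymphoid transcription factor, was nearer the average at 1.15 ± 0.466. The beta-globin cluster, which is active in erythroid cells, was low: cells ran from 0 to 1.32, with a median of 0.505 and a mean of 0.522 ± 0.300, below 1 in 25 cells. It sits among the olfactory receptor genes of 11p15.4, a stretch that was at 0.616 ± 0.207 and below 1 in all 26 cells.

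**Figure D4:**
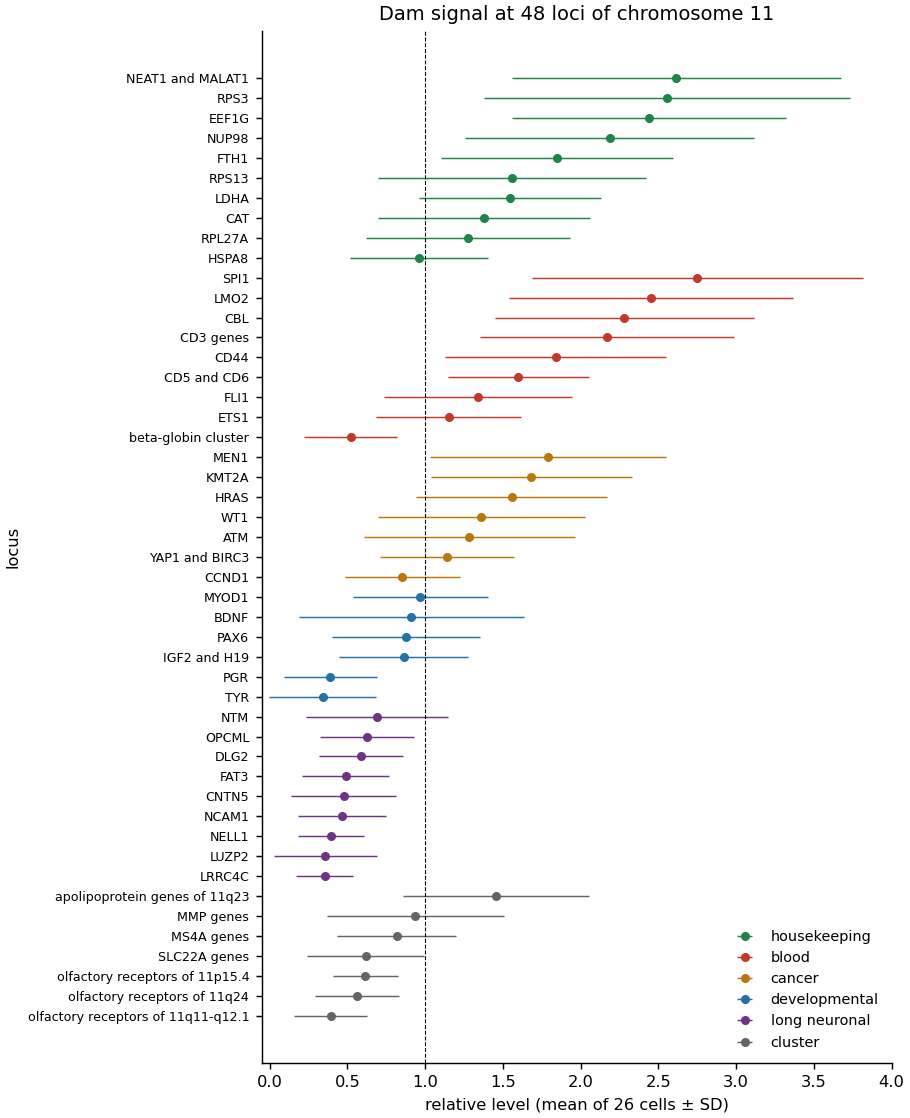
Relative level (mean of 26 cells, bars SD) at 48 loci of chromosome 11, grouped by role and sorted within each group. All 9 long neuronal loci lie below 1, and SPI1 is highest at 2.75.

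Cancer and DNA repair loci spread more. Of 7, 6 had a mean above 1, against 41.3% of windows, and 2 were above 1 in at least 21 cells. These were MEN1, the menin tumour suppressor, at 1.79 ± 0.759 and KMT2A, a histone methyltransferase rearranged in leukaemia, at 1.68 ± 0.645, each in 22 cells. HRAS, a signalling GTPase, was at 1.56 ± 0.613 (20 cells). ATM, a DNA damage kinase, lay inside the low 11q22.3 band (0.724 ± 0.178) and its widened window was at 1.28 ± 0.678, above 1 in 17 cells, but at 0.846 without the widening. CCND1, the cyclin D1 gene, had the lowest level, 0.853 ± 0.370, in the 11q13 trough described above.

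None of the 6 developmental and tissue-specific loci had a mean above 1, against 41.3% of windows. MYOD1, a muscle transcription factor, was highest at 0.969 ± 0.435. BDNF was at 0.912 ± 0.725, or 0.397 without the widening, and PAX6, an eye and brain transcription factor, at 0.875 ± 0.475. In both the highest cell was cell 22, at 3.91 and 2.76. PGR, the progesterone receptor gene, was at 0.391 ± 0.296. TYR, the melanocyte gene for tyrosinase, was lowest of all 48 at 0.341 ± 0.343, and at 0.205 without the widening, but rests on 59 counts, and 4 of its 6 bins had a low expectation.

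The 9 long genes of neurons and cell adhesion were all low, each below 1 in at least 21 cells, against 41.5% of windows of 5 bins in the genome. These loci span 3 to 21 bins, so windows of 5 bins are not an exact match. They ran from 0.355 ± 0.183 at LRRC4C, a synaptic adhesion gene in 11p12, to 0.691 ± 0.455 at NTM, another adhesion gene, in 11q25. LUZP2, in 11p14.3, was at 0.357 ± 0.331. CNTN5, a contactin, was at 0.477 ± 0.338 and DLG2, a synaptic scaffold gene, at 0.586 ± 0.269. In summed counts LRRC4C was at 0.388 times the genome average (0.346 to 0.432, 322 counts) and DLG2 at 0.560 times (0.519 to 0.603, 698 counts). LRRC4C was below 1 in all 26 cells.

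Of 7 gene clusters, 1 had a mean above 1, against 41.3% of windows of 5 bins in the genome. The apolipoprotein genes of 11q23, active in liver and intestine, were at 1.46 ± 0.597 and above 1 in 21 cells. The olfactory receptor genes of 11q11-q12.1 were lowest, at 0.392 ± 0.237. Of their 15 bins, 14 had a deposited ratio of 1 or more in at most 5 cells, against 33.5% of all used bins. The olfactory receptor genes of 11q24 were at 0.561 ± 0.268. The matrix metalloproteinase (MMP) genes were near the average, at 0.937 ± 0.567 and above 1 in 11 cells.

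Single bins were then counted by the number of cells in which they were positive, meaning a deposited ratio of 1 or more. Widely shared bins, positive in 21 or more of the 26 cells (80%), made up 78 on chromosome 11 (5.99%), against 5.61% of all used bins. Rarely positive bins, positive in 5 or fewer (20%), made up 465 (35.7%), against 33.5% of all used bins. Both shares were near those of the genome. They were placed unevenly. 11q13 has 159 of the 1303 bins but held 28 of the 78 widely shared bins (35.9%) and 11 of the 465 rarely positive ones (2.37%). 11p14 held 0 widely shared bins, and 74 of its 93 bins (79.6%) were rarely positive. 11q14-q22 held 6 widely shared bins, and 157 of its 329 (47.7%) were rarely positive.

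Rarely positive bins, which were also more numerous, formed longer runs at most than widely shared ones. Whether their larger number alone accounts for the longer runs was not tested. The 78 shared bins formed 54 runs, 34 of them a single bin, and no run exceeded 3 bins. Runs of 3 included 57100001 to 57400000 in 11q12.1, at 2.74 ± 0.998, 65000001 to 65300000 in 11q13.1, at 3.65 ± 1.77, and 77900001 to 78200000 in 11q14.1, at 3.09 ± 1.03. The 465 rarely positive bins formed 162 runs, 81 of them a single bin. The longest had 32 bins in 11p14, at 23900001 to 27100000 and a level of 0.318 ± 0.126. The next were 25 bins at 96900001 to 99400000 (0.355 ± 0.177) and 17 bins at 38200001 to 39900000 in 11p12 (0.289 ± 0.132).

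The highest bins lay at or beside loci of the list above. That list was chosen with earlier results of these data known. The share of all bins at or beside a listed locus was not computed, so the match is a description only. Among bins without a low expectation, the highest was at 75000001 to 75100000 in 11q13.4, next to RPS3, at 5.27 ± 4.02 from 271 counts. Its median cell was at 4.98 and 24 cells were positive, but cell 26 stood far above the rest. The bin at 33900001 to 34000000, in the LMO2 window, was at 4.71 ± 2.99. The bin at 47200001 to 47300000, in the SPI1 window, was at 4.69 ± 2.28 and positive in all 26 cells. A pair of bins at 65100001 to 65300000, in the NEAT1 and MALAT1 window, was at 4.44 ± 2.57, and the mean of the pair was above 1 in all 26. The bin at 3800001 to 3900000, which holds part of NUP98, a nuclear pore gene, was at 4.43 ± 2.43. The lowest such bins were at 103600001 to 103700000 (0.0705 ± 0.211, 4 counts), 23400001 to 23500000 (0.0741 ± 0.175, 6 counts), 46500001 to 46600000 (0.0856 ± 0.203, 6 counts), 39300001 to 39400000 (0.0885 ± 0.262, 6 counts) and 97000001 to 97100000 (0.102 ± 0.202, 10 counts). No cell was positive in any of these 5.

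Cells shared the chromosome 11 map to different degrees. Each cell was set against the other 25 over the 1303 bins by Spearman correlation, and the mean was 0.292 ± 0.0612, from 0.0969 in cell 22 to 0.396 in cell 1, and the other chromosomes had means between 0.199 and 0.301. Over windows of 1 Mb it was 0.644 ± 0.120. Bins are not independent, all cells share 1 expectation per bin, and depth moves the value: with every cell thinned to 20000 counts it was 0.195.

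**Figure D5:**
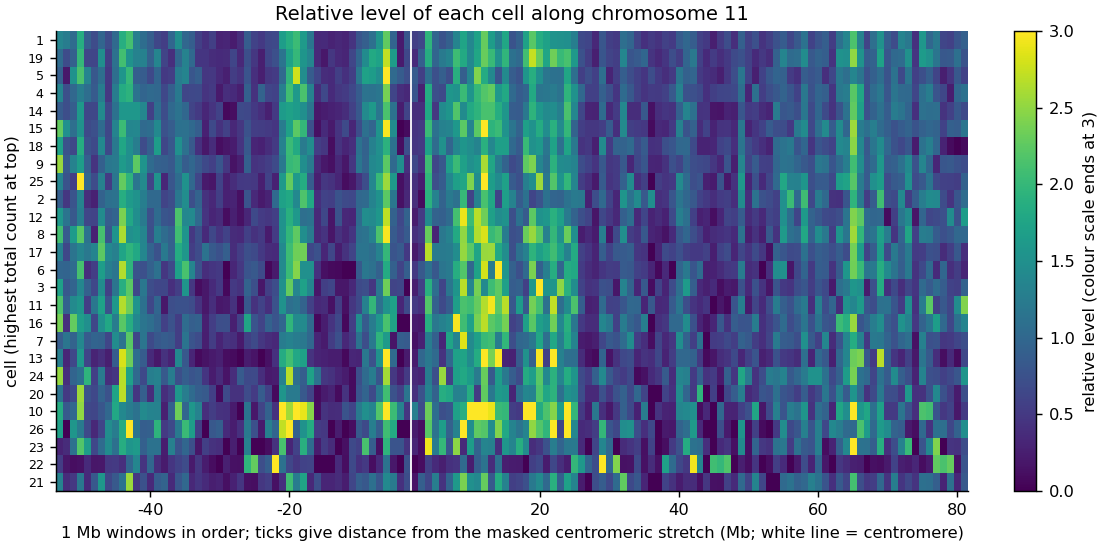
Relative level of each of the 26 cells (rows, highest total count at the top) in windows of 1 Mb along chromosome 11, on a colour scale that ends at 3. Levels are high in most rows at 11p13, 11p11.2, 11q13 and within 11q23.3, and cell 22 departs from the others.

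Cells 22, 13 and 10 held the extremes. In cell 22 the order was turned, with 0.527 in 11q13, 0.707 in 11p14 and 0.922 in 11q14-q22. Its departure was not limited to chromosome 11. Cell 22 was the least similar to the others on every chromosome except 19 and the rearranged one listed as 22:9. Its total of 21105 counts was the second lowest. The 67 counts of 11q13 in cell 22 were 0.534 times the number expected at the cell average (0.414 to 0.678). Cell 13 had the largest difference, a log2 ratio of 11q13 over 11p14 of 3.90, with 15 counts in 11p14, or 0.125 times the expected number (0.0700 to 0.206). Cell 10 had the highest 11q13, at 2.38, and the highest 11p13, at 2.60. The middle 50% of cells had a log2 ratio of 11q13 over 11p14 between 1.62 and 2.08.

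The variance over cells divided by the Poisson variance was 5.38 in 11p14 and 5.32 in 11q14-q22, and 11.5 in 11q13 without cell 22. These values grow with the number of counts and include any repeated counting of PCR copies, so they are not ranked and do not separate cells from counting. Across the 26 cells the levels of the short and the long arm correlated (Pearson r 0.857, Spearman rho 0.718, r 0.667 without cells 10 and 22). Both share the cell's mean as divisor and its depth. The levels of 11q13 and 11p14 showed no clear relation (r -0.0991, rho 0.204, and r 0.217 without cell 22), and the log2 ratio of 11q13 over 11p14 showed little relation to the log10 of total counts (r 0.0910, rho -0.0154, and r -0.153 without cell 22). With the log2 ratio of gene-dense chromosomes (16, 17, 19, 20 and the rearranged chromosome listed as 22:9) over gene-poor ones (4, 5, 13 and 18) in the same cells it had r 0.639 and rho 0.469, and r 0.337 without cells 13 and 22. These correlations describe 26 cells of 1 clone and carry no test.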

How the data were processed

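Genomic DNA of single sorted KBM7 cells was cut by DpnI, joined to adapters and amplified over 21 extension steps, per the labels' protocols. The tools listed are cutadapt and Bowtie2 2.1.0, with hg19 as the build, per the submitters' processing notes. For counting, masking and the expectation no source here names a method. Each deposited value is a ratio for 1 cell in 1 bin of 100 kb, taken as observed over expected because the table is named so and cell means are 0.925 to 0.997. Each of 26 columns matched 1 sample by number.

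Of 1351 chromosome 11 bins, 37 had no value (31 of them at 51600001 to 54700000, taken to split the arms) and 11 were 0 in every cell. Within a bin the ratios were whole multiples of a step, from which the smallest whole counts and a relative expectation were recovered (largest distance from a whole number 2.42e-13, tolerance 0.001). For bins with counts in few cells these hold only up to a common factor. Low expectation means under 0.5 times the genome median (45 bins here).

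Band bounds and locus positions were entered by hand from general knowledge of hg19, rounded to 0.1 Mb. The order of the 48 loci matched the order of the genes in RefSeq (0 neighbours out of order). Loci given with a level in the paragraph of their role are the highest, the lowest and up to 3 more. Named bins are the 5 highest and the 5 lowest without low expectation, and the 3 longest runs of each kind. A locus and a run tied for length are not reported here. The members, lists and comparisons were chosen with earlier results of these data known. The lowest heterogeneity chi-square over its degrees of freedom among 325 pairs of cells was 1.69 (cells 9 and 16), so no pair was counted as 1.

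On simulated counts with the real expectations and depths, a 4-fold difference between 11q13 and 11p14 was recovered as 4.08-fold, a 2-fold difference between 11q13 and 11q14-q22 as 2.01-fold, and counts were exact in all cells for 99.99% of bins. These were Poisson counts with the same fold in every cell, so they check the computation only. The SD of the log2 ratio of 11q13 over 11p14 was 0.20 there, against 0.67 in the data. Alternatives covered bin filters, capping at the 99th percentile, medians, summed counts, thinning, region bounds and cells left out. Those for bands were added after seeing the data. The tools were scipy 1.17.1, pandas 2.3.3, numpy 2.4.6 and matplotlib 3.10.9 under Python 3.11.15.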

Additional observations from a re-analysis of the deposited data

How the results depend on the processing

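Of 76 recomputed values that answer a comparison, 68 moved by less than the SD over cells or, for counts, stayed within 1.5 times. The log2 ratio of 11q13 over 11p14 ran from 1.81 to 2.04 over 11 alternatives, that of 11q13 over 11q14-q22 from 1.12 to 1.35 over 11, that of 11p14 over 11q14-q22 from -0.89 to -0.51 over 10, that of the short over the long arm from -0.16 to -0.06 over 9, and that of chromosome 11 over the other autosomes from -0.08 to -0.01 over 9. Medians of bins could be used in only 12 to 20 cells, since the others had a regional median of 0.

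Counts of positive bins depended on the threshold and on depth. Calling a bin positive from a ratio of 0.5 gave 250 widely shared bins on chromosome 11 (17.8% of bins were so over the whole genome) and 107 rarely positive ones (6.86% over the genome). A ratio of 2 gave 12 (0.460% over the genome) and 969 (75.1% over the genome). Without the 6 cells of lowest total, 126 were widely shared (9.18% over the genome), and with every cell thinned to 20000 counts, 283 were rarely positive (19.4% over the genome). The similarity between cells was 0.195 with thinned counts and 0.644 in windows of 1 Mb. Without cell 22, 99 were widely shared (6.92% over the genome, against 5.61% with all cells). The cause was not tested.

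Of the recomputed levels of bands and loci, 293 stayed within 1 SD and 4 did not. The exceptions were NUP98 at 3.19, LDHA at 2.19 and LMO2 at 4.71 without padding, and 11p11.12 at 0.854 without bins of low expectation. Within 1 SD, but by over 1.5 times, the widening of windows also moved CAT, ATM, BDNF and TYR. No paired analysis was possible between groups of samples because all cells form 1 group, and regions were compared within each cell. Loci named by role had a mean above 1 in 23 to 25 of 48, and bands in 17 of 35, against 24 and 16 in the report.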
